A study of Arabidopsis thaliana with 6 samples.

Results

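WRKY proteins are a plant family of transcription factors, and 45 genes of the family in Arabidopsis thaliana were taken by name from a table of 33602 genes. Their reads were counted in 6 libraries, and 43 of the 45 had at least 20 reads in at least 1 library. At least 100 reads in a library were reached by 33 members, and 10 others reached between 20 and 99. Just inside the limit of 20 reads were WRKY51, with at most 23 reads in a library, and WRKY42, with at most 25. The genes left below it were WRKY41, with at most 12, and WRKY55, with at most 5.

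The libraries came from RNA of the aerial parts of plants 18 days old, of which the last 12 days were on soil. They were kept in a greenhouse at 22 °C under days of 16 h light and nights of 8 h. There was 1 library for each of 6 genotypes, and the labels name no other treatment. These were the wild type Col-0, the single mutants ein5-1, ski2-3 and rdr6-11, the double mutant ein5-1 ski2-3 and the triple mutant rdr6-11 ein5-1 ski2-3. EIN5, also called XRN4, is a cytoplasmic exonuclease that removes decapped mRNA, SKI2 is a helicase that feeds mRNA to the cytoplasmic exosome, and RDR6 makes double-stranded RNA from which small interfering RNAs are cut. The sources used here do not say how many plants were pooled for a library.

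The family is named for a conserved stretch of amino acids in its DNA-binding domain, which holds a zinc finger and binds a promoter element called the W box. Members of group I carry a pair of these domains, and groups II and III carry a single one with different zinc fingers. Many WRKY genes are themselves switched on quickly by pathogens, wounding, salicylic acid or leaf ageing, and their proteins activate or repress defence and senescence genes, often each other's. Group IIa proteins bind to each other, and those of group IId bind calmodulin.

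A level below is the number of reads per 1e+06 scaled nuclear reads (called normalised reads), and a ratio is a log2 ratio of such levels. Each interval is an exact 95% interval for counting error in the 2 libraries and holds no plant-to-plant spread. A gene counted as measured between 2 libraries where at least 1 of them had 100 or more reads of it, and it was called higher or lower where its levels were at least 2-fold apart. With 1 library per genotype this limit is set by size alone, no test is possible, and no p-value can be given. The libraries held 20205663 to 33100379 reads, of which 10942840 to 16593256 fell on nuclear genes. Ribosomal RNA made up 19.2% of nuclear reads in the wild type and 0.335% to 2.71% in the mutants. The targeted genes followed the labels: EIN5 was at 26.6 to 43.8 normalised reads in the 3 ein5-1 genotypes and at 63.7 to 80.2 in the others. SKI2 was at 17.3 to 23.0 in the ski2-3 genotypes and 28.9 to 30.7 in the others, and RDR6 was at 13.5 to 15.9 and 33.3 to 46.1 likewise. Of 4 leaf markers, the summed level was between 6274 and 25598 normalised reads, while 6 root and 5 floral markers summed to at most 4.74 and 4.46. In bulk tissue, fewer cells of a type and less RNA per cell cannot be told apart.

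Of the members, WRKY33 had the highest level per transcript length, with a median over the 6 libraries of 25.0 in the authors' deposited RPKM. WRKY70 followed at an RPKM of 22.8 and WRKY18 at 21.8, and the next were WRKY15 (13.6), WRKY25 (11.9), WRKY40 (11.7) and WRKY11 (11.0). The lowest was WRKY55, at a median RPKM of 0.0503. Together, the 45 genes had 910 normalised reads in Col-0, 858 in ein5-1, 1159 in ski2-3 and 1036 in ein5-1 ski2-3. They had 1319 in rdr6-11 and 1483 in the triple mutant, so that the sum was highest in the libraries with the rdr6-11 allele. Much of that lay in WRKY33 alone, which took 26.1% of the WRKY reads in rdr6-11 and 28.2% in the triple mutant, against 9.57% to 13.5% in the other 4 libraries.

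**Figure D1:**
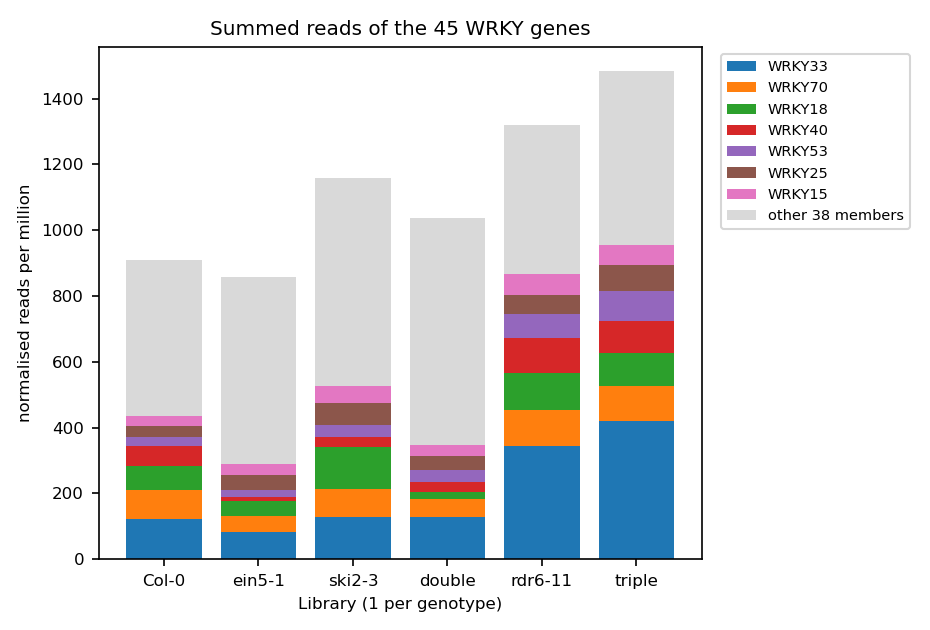
Summed normalised reads of the 45 WRKY genes in each of the 6 libraries (1 per genotype), stacked by gene, with 7 members shown singly and the other 38 in grey. The WRKY33 segment is the largest of the 7 in each library and is at 345 and 419 in rdr6-11 and the triple mutant, against 82.1 to 128 in the other 4.

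Many members separated the libraries with the rdr6-11 allele from the others. The same libraries also differed in clock genes and in their share of even counts, as given below. Of the 33 members with at least 100 reads, 8 (24.2%) were higher in both rdr6-11 genotypes than in every other library, and 17.5% of all genes with as many reads did the same. A further 13 members (39.4%) were lower in both than in every other library, against 24.4% of all genes. None of the 33 was highest in Col-0, where 11.1% of all genes were highest. The double mutant held the highest level of 13 members (39.4%), near the 32.2% of all genes, and the lowest level of 1 member, WRKY18 (25.9% of all genes). The lowest level of 7 members (21.2%) was in ein5-1, against 9.5% of all genes, and that of 14 (42.4%) was in rdr6-11, against 27.3%.

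**Figure D2:**
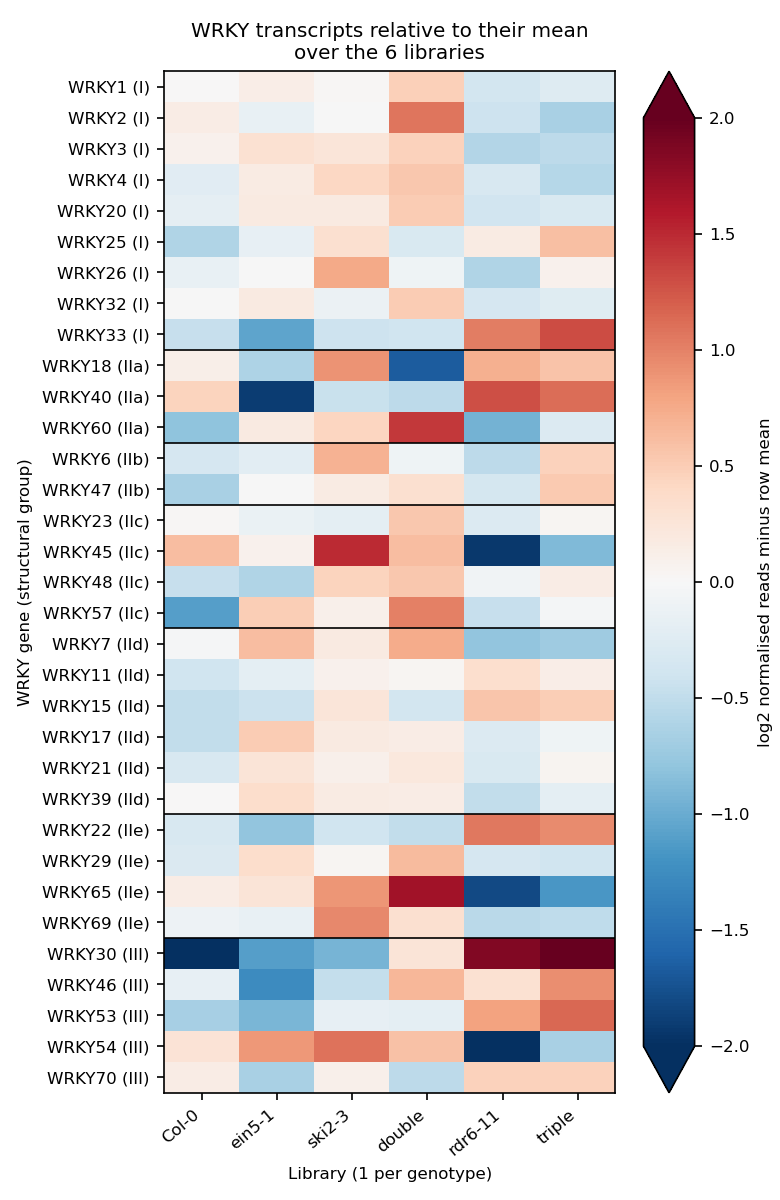
Log2 normalised reads of the 33 WRKY genes with at least 100 reads in a library, each relative to its own mean over the 6 libraries and ordered by structural group. Rows such as WRKY33, WRKY22, WRKY30 and WRKY53 are red in rdr6-11 and the triple mutant, and rows such as WRKY65, WRKY45 and WRKY54 are blue there.

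WRKY33 and WRKY22 were high in both rdr6-11 genotypes, and WRKY29 was not. WRKY33 (AT2G38470, group I) is needed for defence against necrotrophic fungi and activates camalexin genes after phosphorylation by the kinases MPK3 and MPK6. It was at 123 normalised reads in Col-0, 82.1 in ein5-1, 128 in ski2-3, 128 in the double mutant, 345 in rdr6-11 and 419 in the triple mutant. The lowest of the rdr6-11 genotypes was thus far above the highest of the others. Its ratio was 1.48 in rdr6-11 against Col-0 (interval 1.39 to 1.58) and -1.71 in the double against the triple mutant (-1.78 to -1.64). WRKY22 (AT4G01250, group IIe) acts downstream of a kinase cascade started by bacterial flagellin. Its levels were 24.4 in Col-0, 17.6 in ein5-1, 23.0 in ski2-3, 21.6 in the double mutant, 63.6 in rdr6-11 and 58.8 in the triple mutant. The 4 libraries with wild-type RDR6 lay close together, and the ratio of rdr6-11 to Col-0 was 1.38 (1.17 to 1.60). WRKY29 (AT4G23550, group IIe), placed beside WRKY22 in that cascade, did not follow it. Its levels were 5.53, 8.63, 6.93 and 10.5 in Col-0, ein5-1, ski2-3 and the double mutant and 5.36 and 5.11 in rdr6-11 and the triple mutant, and it was called in 1 comparison, at 1.03 (0.66 to 1.43) in the double against the triple mutant.

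WRKY53 (AT4G23810, group III), a promoter of leaf senescence, was at 25.7 normalised reads in Col-0, 21.6 in ein5-1, 36.5 in ski2-3, 35.6 in the double mutant, 71.3 in rdr6-11 and 90.9 in the triple mutant. Both rdr6-11 genotypes were again above all others. The ratio was 1.47 (1.26 to 1.68) in rdr6-11 against Col-0 and -1.35 (-1.49 to -1.22) in the double against the triple mutant. WRKY30 (AT5G24110, group III), a gene induced by reactive oxygen, had 2 reads in Col-0, 8 in ein5-1, 8 in ski2-3, 34 in the double mutant, 72 in rdr6-11 and 132 in the triple mutant. It had the widest range of the 33 members, 33.4-fold between Col-0 and the triple mutant, but the Col-0 value rests on 2 reads and the log2 ratio of 5.06 has an interval from 3.41 to 8.35. WRKY15 (AT2G23320, group IId), which acts in responses to reactive oxygen and salt, was at 31.9, 33.2, 52.7 and 34.6 in Col-0, ein5-1, ski2-3 and the double mutant, and at 65.8 and 62.8 in rdr6-11 and the triple mutant. Its ratio of rdr6-11 to Col-0 was 1.04 (0.85 to 1.24), just past the limit.

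Some of these genes share their locus with a gene on the other strand, and the sources used here do not state whether reads were counted by strand, so that reads of the partners cannot be told apart. The partner of WRKY33, AT2G38480, was counted 40 times in the Col-0 library and 126 times in rdr6-11, against 1158 and 4498 for WRKY33. The partner of WRKY53, AT4G23800, had 1127 and 1544 reads, more than the 242 and 931 of WRKY53, with a ratio of -0.02 in that comparison. In the double against the triple mutant, AT4G23800 was itself lower, at -1.21. Annotated partners on the opposite strand were found for 9 members, the others being WRKY1, WRKY2, WRKY4, WRKY29, WRKY40, WRKY41 and WRKY69.

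**Figure D3:**
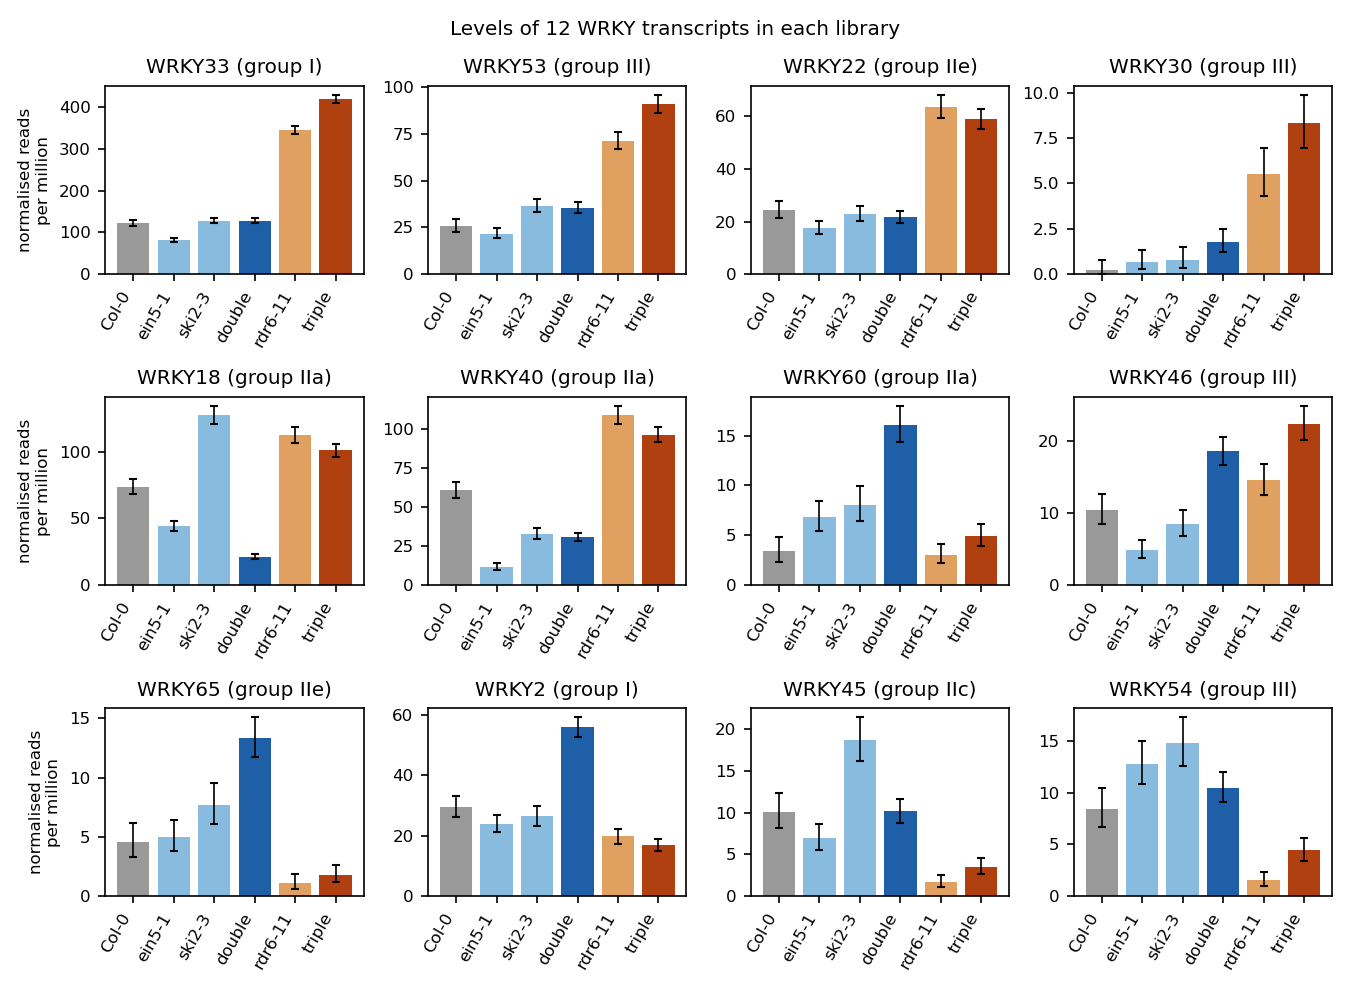
Normalised reads of 12 WRKY genes in the 6 libraries (1 per genotype), with bars from 0 and error bars for the exact 95% counting interval. WRKY33, WRKY53, WRKY22 and WRKY30 are highest in rdr6-11 and the triple mutant, WRKY18 is lowest in the double mutant at 21.4, and WRKY60, WRKY65 and WRKY2 are highest there.

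The 3 members of group IIa, which bind to each other and mostly restrain defence genes, had 3 different profiles. WRKY18 (AT4G31800) was at 73.8 normalised reads in Col-0, 44.5 in ein5-1, 127 in ski2-3, 21.4 in the double mutant, 112 in rdr6-11 and 101 in the triple mutant. Its double mutant level was below that of either single mutant, with ratios of -2.57 (-2.73 to -2.41) to ski2-3, -1.05 (-1.24 to -0.86) to ein5-1 and -1.78 (-1.96 to -1.61) to Col-0. The triple mutant, which differs from the double mutant by the rdr6-11 allele, had 1601 reads of WRKY18 against 407, and the ratio of double to triple was -2.23 (-2.40 to -2.08). WRKY40 (AT1G80840), also a repressor of abscisic acid responses, was at 60.6 in Col-0, 11.9 in ein5-1, 32.7 in ski2-3, 30.9 in the double mutant, 109 in rdr6-11 and 96.3 in the triple mutant. Here ein5-1 and not the double mutant was lowest, at a ratio of -2.35 (-2.63 to -2.09) to Col-0, the lowest of the members in that comparison. The double mutant was above ein5-1 by 1.38 (1.11 to 1.65) and below the triple mutant at -1.64 (-1.78 to -1.50).

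WRKY60 (AT2G25000) ran the other way in the double mutant. It was at 3.40 normalised reads in Col-0, 6.80 in ein5-1, 8.07 in ski2-3, 16.1 in the double mutant, 3.06 in rdr6-11 and 4.92 in the triple mutant. The double mutant was highest, with ratios of 2.23 (1.71 to 2.81) to Col-0, 1.24 (0.88 to 1.61) to ein5-1 and 1.70 (1.34 to 2.09) to the triple mutant. The gap between WRKY18 and WRKY60 in the double mutant against Col-0 was thus -4.01 in log2, and in the triple mutant against rdr6-11 it was -0.83. The double mutant ratio of WRKY60 differed by less than 0.01 from the sum of its ratios in the single mutants, whereas that of WRKY18 was 1.84 below the sum and that of WRKY40 was 2.27 above it. The single mutant ratios of WRKY60 rest on 32, 82 and 85 reads in Col-0, ein5-1 and ski2-3, under the limit of 100. No interval was computed for the distances from the sums, so the small distance of WRKY60 does not establish that its ratios add up. Because of the unequal levels, the summed reads of the group followed WRKY18 and WRKY40. They were 138 in Col-0, 63.1 in ein5-1, 168 in ski2-3, 68.4 in the double mutant, 224 in rdr6-11 and 202 in the triple mutant.

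Group III members act mostly around salicylic acid and senescence. WRKY46 (AT2G46400), which acts with WRKY53 and WRKY70 in resistance to bacteria, was at 10.4 normalised reads in Col-0, 4.89 in ein5-1, 8.45 in ski2-3, 18.5 in the double mutant, 14.6 in rdr6-11 and 22.4 in the triple mutant. The double mutant was above both single mutants, at 1.91 (1.52 to 2.34) to ein5-1 and 1.13 (0.79 to 1.49) to ski2-3, while its ratio to the triple mutant was -0.27 (-0.49 to -0.06). WRKY54 (AT2G40750) and WRKY70 (AT3G56400) are close relatives that act together in salicylic acid signalling and hold back senescence. WRKY54 was at 8.41, 12.8, 14.8 and 10.5 in Col-0, ein5-1, ski2-3 and the double mutant and at 1.53 and 4.42 in rdr6-11 and the triple mutant. WRKY70 was at 86.6, 49.9, 84.4 and 54.8 in the first 4 and at 108 in both of the others. Thus WRKY54 was low in the libraries in which WRKY70 was highest, and the gap between their ratios in the double against the triple mutant was 2.22 in log2. WRKY54 was called there at 1.24 (0.85 to 1.66), and WRKY70 was not. The remaining members of the group had few reads: WRKY38 at most 54, WRKY62 at most 31, and WRKY41 and WRKY55 under 20.

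Another set has known links to phosphate. WRKY6 (AT1G62300, group IIb), a senescence factor that represses the phosphate exporter gene PHO1, was at 31.7 normalised reads in Col-0, 34.7 in ein5-1, 64.6 in ski2-3, 37.7 in the double mutant, 27.7 in rdr6-11 and 54.9 in the triple mutant. It was highest in ski2-3, at 1.03 (0.83 to 1.23) to Col-0, and the triple mutant stood at 0.98 to rdr6-11, just inside the limit. WRKY45 (AT3G01970, group IIc), an activator of the phosphate transporter gene PHT1;1, was at 10.1, 6.97, 18.7 and 10.2 in Col-0, ein5-1, ski2-3 and the double mutant and at 1.69 and 3.53 in rdr6-11 and the triple mutant. Its ratio was 1.52 (1.09 to 1.98) in the double against the triple mutant. WRKY75 (AT5G13080, group IIc), an activator of phosphate starvation genes and of senescence, had 71, 29, 97 and 34 reads in the first 4 libraries and 4 and 10 in rdr6-11 and the triple mutant. It never reached 100 reads and so could not be called, but its ratio of rdr6-11 to Col-0 was -4.46 (-6.54 to -3.20). The other member with a known link, WRKY42, had at most 25 reads. Of the phosphate starvation list of 7 genes, 5 were measured in the double mutant against Col-0, and PAP17 (2.56), PHT1;4 (1.83) and PHT1;1 (1.46) were higher, while WRKY45 stood at 0.01 (-0.35 to 0.38).

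WRKY65, WRKY57 and WRKY48 were each highest in the double mutant. WRKY65 (AT1G29280, group IIe) was at 4.57 normalised reads in Col-0, 4.98 in ein5-1, 7.69 in ski2-3, 13.4 in the double mutant, 1.15 in rdr6-11 and 1.83 in the triple mutant. It had the highest ratio of the members in the double against the triple mutant, 2.85 (2.31 to 3.48), on 254 against 29 reads, and stood at 1.54 (1.08 to 2.05) to Col-0. WRKY57 (AT1G69310, group IIc), which raises drought tolerance, was at 1.70 in Col-0 and at 5.23, 3.99, 7.53, 2.68 and 3.60 in ein5-1, ski2-3, their double mutant, rdr6-11 and the triple mutant. Col-0 was lowest, on 16 reads, and the double mutant stood at 2.12 (1.40 to 2.99) to it and at 1.06 (0.61 to 1.54) to the triple mutant. WRKY48 (AT5G49520, group IIc), a repressor of resistance to bacteria, was at 9.79, 8.88, 18.3, 19.7, 12.8 and 14.9 in the same order. Its ratio of the double mutant was 1.01 (0.68 to 1.35) to Col-0 and 1.15 (0.84 to 1.47) to ein5-1, and it was not called against ski2-3.

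In group I, WRKY2 (AT5G56270), known from seed germination and pollen, was at 29.5 normalised reads in Col-0, 23.9 in ein5-1, 26.4 in ski2-3, 55.8 in the double mutant, 19.8 in rdr6-11 and 16.8 in the triple mutant. The 2 single decay mutants were below Col-0 and the double mutant was above all others, at 1.22 (1.04 to 1.42) to ein5-1, 1.08 (0.89 to 1.28) to ski2-3 and 1.73 (1.53 to 1.93) to the triple mutant. Its ratio to Col-0 was 0.92, not called. WRKY4 (AT1G13960), which acts in resistance to necrotrophs, was at 15.1, 19.9, 23.6, 25.6, 14.1 and 11.9 in the same order of libraries and was called in the double against the triple mutant, at 1.11 (0.86 to 1.36). Of the 9 measured members of group I, 9 stood above Col-0 in the double mutant and none was called. Those 9 kept this sign under each of the 3 other scalings tried, although WRKY33 and WRKY26, at 0.06, lay below the 0.08 of the median of all genes.

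The calmodulin-binding group IId had 6 members, and all 6 were measured. WRKY7 (AT4G24240) was at 35.0 normalised reads in Col-0, 54.5 in ein5-1, 40.4 in ski2-3, 59.4 in the double mutant, 20.7 in rdr6-11 and 21.7 in the triple mutant. It was lowest in both rdr6-11 genotypes and was called in the double against the triple mutant, at 1.45 (1.28 to 1.63). WRKY17 (AT2G24570), which restrains basal defence with WRKY11, was at 22.3, 44.9, 35.7, 34.8, 26.0 and 29.6 in the same order and was called in ein5-1 against Col-0, at 1.00 (0.77 to 1.24). WRKY7 and WRKY15 of this group differed in direction: in the double against the triple mutant their ratios were 1.45 and -0.86. WRKY69 (AT3G58710, group IIe) was at 4.89, 4.73, 10.3, 6.53, 3.60 and 3.66 in the 6 libraries and was called in ski2-3 against Col-0, at 1.06 (0.56 to 1.60).

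Calls were counted over 8 comparisons: 4 of a mutant with Col-0 (both single mutants, the double mutant and rdr6-11), the triple mutant with rdr6-11, and the double mutant with the triple mutant and with each single mutant. Of the 33 members with at least 100 reads, 12 were called in none of these 8. They were WRKY1, WRKY3, WRKY20, WRKY25, WRKY26, WRKY32, WRKY47, WRKY23, WRKY11, WRKY21, WRKY39 and WRKY70, and their highest and lowest libraries were between 1.50-fold (WRKY21) and 2.55-fold (WRKY26) apart. In the triple mutant against Col-0, which is not among the 8, WRKY25 and WRKY47 passed the same limits at 1.19 (1.01 to 1.37) and 1.17 (0.87 to 1.49). The 10 members with 20 to 99 reads were WRKY31, WRKY42, WRKY8, WRKY28, WRKY50, WRKY51, WRKY75, WRKY27, WRKY38 and WRKY62. Their ranges ran from 1.98-fold (WRKY27) to 26.9-fold (WRKY75).

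Few members were called in the single decay mutants, but the called share was above that of all measured genes in both. The low counts rest in part on the read limit, and counts under lower limits are given further below. Comparisons that share a library, such as those against Col-0, are not independent of each other, and their values are given side by side. In ein5-1 against Col-0, 1 of 24 measured members was higher (WRKY17) and 1 lower (WRKY40), which is 8.33% called, against 3.5% of the 12987 genes measured (1.46% higher and 2.04% lower). The median ratio of the members was 0.20 and that of all measured genes 0.04. With other scalings WRKY17 stood at 0.98 at the lowest and lost its call. The read limit kept out members that were at least 2-fold apart in either direction. Among them WRKY46 stood at -1.09 (59 reads in ein5-1 against 98 in Col-0) and WRKY75 at -1.64 (29 against 71). In the other direction, WRKY57 had 63 against 16 reads and WRKY38 had 24 against 8. Of 16 genes on a list of rapid touch and wound responses, 13 were lower in ein5-1, with a list median of -1.66, among them ORA47 (-3.34) and ERF13 (-3.64). WRKY40, itself a rapidly induced gene, was lower beside them, and their part in its value was not tested. In the double mutant against ein5-1, 9 of the 15 measured genes of that list were higher.

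Small positive ratios ran over much of the family in ski2-3. In ski2-3 against Col-0, 2 of 26 measured members were higher (WRKY6 and WRKY69) and 0 lower, 7.69% called against 3.6% of the 12520 genes measured (2.44% higher and 1.17% lower). The ratios of 21 of the 26 were above 0, the median was 0.49 and that of all measured genes 0.06. No share of all genes above 0 is given. Here too the read limit kept out members, such as WRKY60 at 1.24 (85 reads in ski2-3 against 32 in Col-0). In the other direction, WRKY50 had 6 against 12 reads. Of the 9 members of group I, 7 were above 0, and with totals of nuclear reads or with the authors' ratios 5 were. Both calls were lost with totals of nuclear reads and with the authors' ratios, where WRKY6 stood at 0.89 and WRKY69 at 0.92 at the lowest. The salicylic acid list had 3 of 12 measured genes higher, PR1 (3.07), PR2 (1.94) and PR5 (1.82), and the list of camalexin and pattern-response genes had 6 of 9 higher, with CYP71A12 at 1.90 and CYP71A13 at 1.85. WRKY33 stood at 0.06 in that comparison.

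In the double mutant against Col-0, 4 of 32 measured members were higher (WRKY60, WRKY57, WRKY65 and WRKY48) and 1 lower (WRKY18). This was 15.6% of the members, the same as the 15.6% of the 15068 genes measured (8.6% higher and 7.02% lower). The median ratio of the members was 0.47 and that of all measured genes 0.08. With the authors' deposited RPKM ratios 11 members were called (10 higher, 1 lower). Those ratios also raised the median of all genes, and no share of all genes is given for that count. With median-of-ratios size factors WRKY48 lost its call at 0.95. Against the single mutants, the double mutant had 6 members higher and 1 lower of 32 compared with ein5-1 (21.9%, against 12.4% of 15084 genes, 6.81% higher and 5.55% lower). It had 2 higher and 1 lower of 32 compared with ski2-3 (9.38%, against 13.4% of 15093 genes, 6.71% higher and 6.65% lower). With totals of nuclear reads it had 7 called compared with ski2-3 (6 higher, 1 lower; 16.2% of all genes), and with the authors' deposited RPKM ratios 8 (7 higher, 1 lower; 19.1% of all genes). WRKY2 and WRKY46 were the members higher than in both single mutants, and WRKY18 was lower than in both, its call against ein5-1 being lost with 2 of the scalings (-0.88 at the nearest to 0). On the salicylic acid list, 4 of 13 genes were higher in the double mutant than in Col-0, PR2 (2.51), PR1 (1.53), ICS1 (1.38) and PR5 (1.16). On the camalexin and pattern list 3 of 7 were lower, CYP71A13 (-2.65), CYP81F2 (-1.80) and PAD3 (-1.60).

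In rdr6-11 against Col-0, 4 of 23 measured members were higher (WRKY33, WRKY53, WRKY22 and WRKY15) and 0 lower, 17.4% called against 10.4% of the 13300 genes measured (4.65% higher and 5.74% lower). With totals of nuclear reads WRKY15 lost its call at 0.97. The absence of lower calls rests on the limit of 100 reads, which no member lower by 2-fold reached in Col-0, the smallest library. With a limit of 20 reads, 5 members were higher and 4 lower, and of 18554 genes 13.7% were called by that rule (6.63% higher and 7.07% lower). The additional members were WRKY30, higher at 4.47 (2.79 to 7.77), and WRKY45, WRKY54, WRKY65 and WRKY75, lower at -2.56, -2.43, -1.96 and -4.46. Of the kinase and VQ-protein list, MPK3 was higher at 1.48, the same as WRKY33, and SIB2, a partner protein of WRKY33, was lower at -1.89, of 12 measured. PAD3, CYP71A13 and CYP71A12, camalexin genes known as targets of WRKY33, went the other way from it. PAD3, which makes the last step to camalexin, was at 67.9 normalised reads in Col-0, 46.9 in ein5-1, 139 in ski2-3 and 22.3 with both alleles, and at 2.14 in rdr6-11 and 6.94 in the triple mutant. It was thus lowest in both libraries in which WRKY33 was highest, and its ratio of rdr6-11 to Col-0 was -4.96 (-5.59 to -4.44). CYP71A13 (-4.38) and CYP71A12 (-4.34) were lower likewise, so that 3 of the 7 measured genes of the camalexin and pattern list were lower. The others were not called: CYP81F2 stood at 0.97, and CYP79B2, CYP79B3 and GGP1 at -0.35, -0.34 and -0.30. A link of these genes to the WRKY33 value was not tested. On the salicylic acid list, 4 of 13 were higher, ICS1 (2.12), PR1 (1.84), PR5 (1.18) and SARD1 (1.09). On the senescence list NAP (2.60) and SAG21 (1.12) were higher and SAG13 (-3.83) lower, of 7 measured.

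Clock genes separated the same libraries. The morning gene CCA1 had 5, 0, 3 and 19 reads in Col-0, ein5-1, ski2-3 and the double mutant and 639 and 900 in rdr6-11 and the triple mutant. In rdr6-11 against Col-0, 5 of 10 clock genes were higher and 4 lower, and none of those measured was called in ein5-1, ski2-3 or the double mutant against Col-0. The sources used here do not give the hour of collection. The libraries with the rdr6-11 allele also differed in their counts. Of genes with 1 to 20 reads, even counts made up 81.9% in rdr6-11 and 81.5% in the triple mutant, and 38.4% to 41.5% elsewhere. The rdr6-11 allele, the state of the clock and this difference in counts cannot be told apart in these libraries. Their parts in the WRKY values were not tested.

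The same loss of EIN5 and SKI2 could be compared with and without RDR6. In the triple mutant against rdr6-11, between which 0 of 8 measured clock genes were called, 0 of 25 measured members were called, against 1.45% of 14234 genes (1.17% higher and 0.274% lower). Among the measured members the highest ratio was that of WRKY6, at 0.98 (0.81 to 1.17), and the median was 0.10. With totals of nuclear reads 1 member was called, and with the authors' deposited RPKM ratios 2. No share of all genes is given for those counts, and they are not read as a trait of the family. Of the members under 100 reads, WRKY54 stood at 1.50 (0.79 to 2.32) on 70 against 20 reads, WRKY45 at 1.05 (0.33 to 1.85) on 56 against 22, and WRKY62 and WRKY55 had under 10 reads in both libraries. Members called in the double mutant against Col-0 were picked for large ratios there, and their ratios here were smaller. They were WRKY60 0.68 (0.12 to 1.27), WRKY57 0.42, WRKY65 0.65 (-0.28 to 1.68), WRKY48 0.22 and WRKY18 -0.15. The first 3 of these had under 100 reads in both libraries of this comparison. Of all measured genes, 15.6% were called in the double mutant against Col-0 and 1.45% here. The part of RDR6 in the ratios of these members was not tested.

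**Figure D4:**
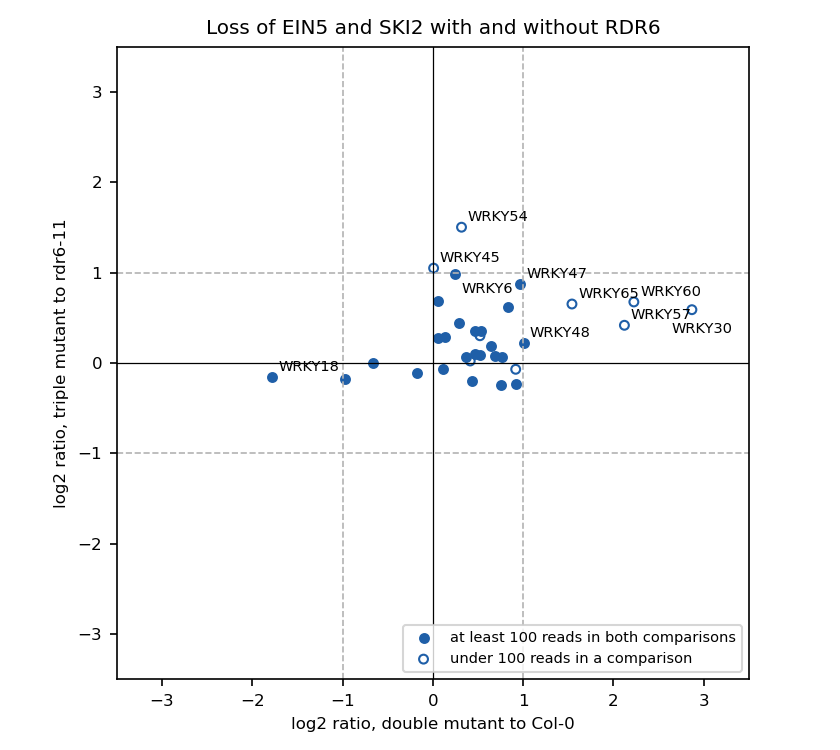
Log2 ratio of the double mutant to Col-0 (x axis) and of the triple mutant to rdr6-11 (y axis) for the 33 WRKY genes with at least 100 reads in a library, with open points for genes under 100 reads in a comparison and dashed lines at 2-fold. WRKY18 is at -1.78 on the x axis and -0.15 on the y axis, and no filled point lies past the dashed lines on the y axis.

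The double against the triple mutant gave the most calls. Of 33 measured members, 9 were higher in the double mutant (WRKY65, WRKY2, WRKY60, WRKY45, WRKY7, WRKY54, WRKY4, WRKY57 and WRKY29) and 6 were lower (WRKY18, WRKY30, WRKY33, WRKY40, WRKY22 and WRKY53). This was 45.5% of the members, against 23.1% of the 15642 genes measured (12% higher and 11.1% lower). Of these 15 calls, 14 held under each other scaling, the exception being WRKY29. Among the 6 lower members, WRKY33 had 2434 against 6640 reads and WRKY53 675 against 1441. Beside them MPK3 was lower at -1.15 and SIB2 higher at 1.16. On the salicylic acid list PR1 (-1.88), ICS1 (-1.13) and NPR3 (-1.11) were lower and PR2 (1.57) higher, of 13 measured. On the camalexin and pattern list CYP81F2 (-3.23) and FRK1 (-1.98) were lower, and CYP71A12 (2.66) and PAD3 (1.68) higher, of 7 measured. The 4 leaf markers were all lower in the double mutant, by 1.31 to 3.19 in log2, and clock genes were called in 9 of 10 cases. Their part in the WRKY ratios was not tested.

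**Figure D5:**
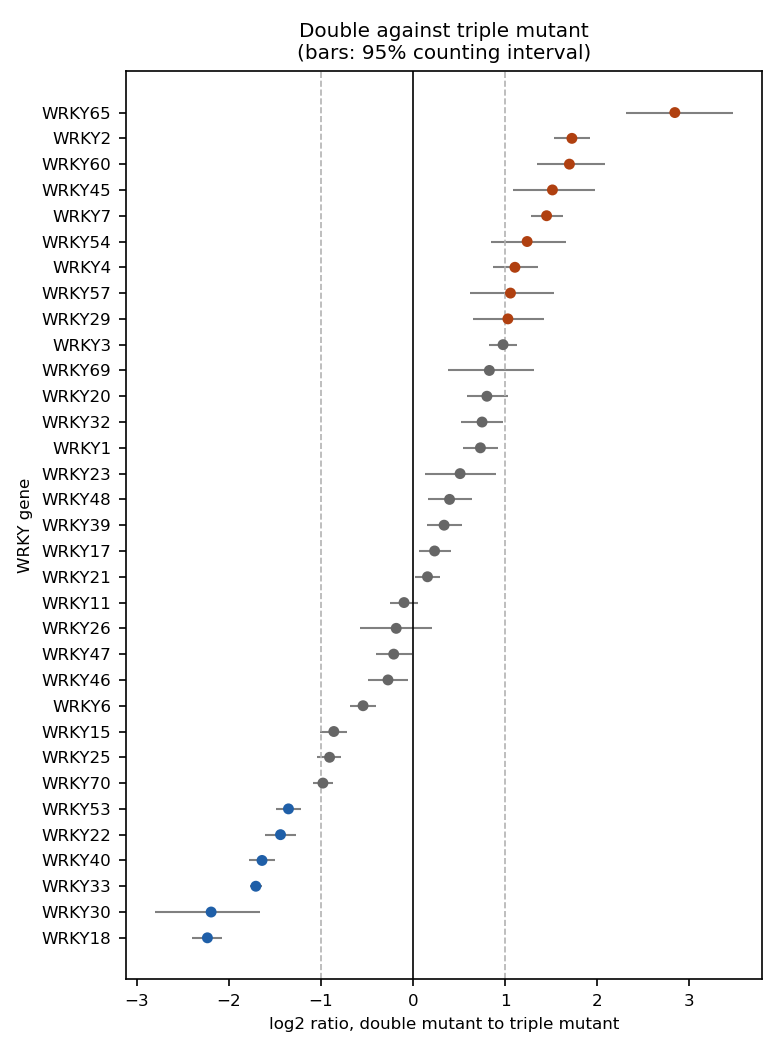
Log2 ratio of the double to the triple mutant for the 33 measured WRKY genes, with exact 95% counting intervals as bars and dashed lines at 2-fold. The 9 members called higher run from WRKY29 at 1.03 to WRKY65 at 2.85, and the 6 called lower run from WRKY53 at -1.35 to WRKY18 at -2.23.

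Relative to Col-0, the triple mutant had 7 of 25 measured members higher (28.0%, against 10.7% of 14307 genes, 6.08% higher and 4.61% lower) and 0 lower. These were WRKY30 at 5.06 (132 against 2 reads), WRKY53 at 1.82, WRKY33 at 1.76, WRKY22 at 1.27, WRKY25 at 1.19 (1.01 to 1.37), WRKY47 at 1.17 (0.87 to 1.49) and WRKY46. Here too the absence of lower calls rests on the limit of 100 reads. WRKY45 (95 and 56 reads in Col-0 and the triple mutant), WRKY65 (43 and 29) and WRKY75 (71 and 10) were under it. Their levels were 10.1, 4.57 and 7.55 in Col-0 and 3.53, 1.83 and 0.631 in the triple mutant. WRKY25, which acts with WRKY26 and WRKY33 in heat tolerance, was at 34.0, 45.7, 64.4, 41.5, 57.4 and 77.8 normalised reads in the 6 libraries, lowest in Col-0 and highest in the triple mutant. WRKY47 was at 11.8, 18.5, 20.9, 23.1, 14.6 and 26.7 in the same order.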

How the data were processed

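RNA depleted of ribosomal RNA from 10 µg of total RNA was sequenced in 6 libraries, per the labels' protocols. The authors deposited 1 table with read counts per gene, RPKM values and log2 ratios of RPKM, per the file headers. BWA and the TAIR9 build are named, per the submitters' processing notes; how reads were counted, and whether by strand, is stated by none of the sources used here. The authors' deposited p-values and false discovery rates were not used. Empty cells stand for 0 reads, since an RPKM of 0.001 in their place gave the authors' ratio in 14709 of 14709 such cases (largest gap in RPKM 3.65e-10); no member had one. Names, strands and the coordinates that gave the overlapping partners came from TAIR10.1. Its build differs from the one named by the submitters, and no sequence was taken from it.

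Counts of 33323 nuclear genes were scaled by a trimmed mean of M-values (trims 0.3 and 0.05), and 0.5 reads were added before the logarithm. The 4 ribosomal and 623 transfer RNA genes were then left out. Exact 95% Clopper-Pearson intervals of the 2 counts cover counting error only. Reads were amplified by PCR without molecular identifiers, so that the intervals may be too narrow even for counting error. Python 3.11.15, numpy 2.4.6, pandas 2.3.3, scipy 1.17.1 and matplotlib 3.10.9 were used, and the scripts were tested on simulated data. All 45 members are accounted for, and values in every library are given for those called. In the other lists, up to 6 called genes per comparison could be named. The members and lists were chosen with earlier results of these data known. Alternatives were other scalings, the authors' ratios, other read limits and halved counts.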

Additional observations from a re-analysis of the deposited data

How the results depend on the processing

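No paired analysis was possible because there was 1 library per genotype, and for the same reason no replicate could be left out. Of the 38 calls over the 8 comparisons, 31 held under each of the 3 other scalings and 0 changed sign. Of the 168 ratios of the 21 called members over those comparisons, 14 that were not called, at most 0.17 from 0, changed sign under at least 1 of them. Calls lost under at least 1 of them were WRKY17 in ein5-1, WRKY6 and WRKY69 in ski2-3, WRKY48 in the double mutant and WRKY15 in rdr6-11, all against Col-0, WRKY29 in the double against the triple mutant, and WRKY18 in the double mutant against ein5-1. With median-of-ratios size factors, the calls in ein5-1 against Col-0 went from 2 to 1 (0 higher, 1 lower), and the split in the double mutant against Col-0 went from 4 higher and 1 lower to 3 and 2. With totals of nuclear reads without ribosomal and transfer RNA, the calls against Col-0 were 1 in ein5-1 (0 higher, 1 lower), 1 in ski2-3 (0 higher, 1 lower) and 8 in the double mutant (7 higher, 1 lower). The calls with those totals were 1 in the triple mutant against rdr6-11 and 7 in the double mutant against ski2-3 (6 higher, 1 lower). With the authors' deposited RPKM ratios, the calls were 0 in ski2-3 and 11 in the double mutant against Col-0 (10 higher, 1 lower), 2 in the triple mutant against rdr6-11 and 8 in the double mutant against ski2-3 (7 higher, 1 lower). In the double mutant against ein5-1 both of these settings gave 6 higher and 0 lower in place of 6 and 1. The median of all genes moved with the scaling. With the authors' ratios it went from 0.08 to 0.37 in the double mutant against Col-0 and from 0.04 to 0.44 against ski2-3. Counts that rose with it are not read as a trait of the family. A limit of 20 reads gave 7, 8, 9 and 9 calls in ein5-1, ski2-3, the double mutant and rdr6-11 against Col-0, 2 in the triple mutant against rdr6-11 and 9 in the double mutant against ski2-3 (4 higher, 5 lower). No read limit gave 9, 11, 11 and 12, then 4 and 10 (4 higher, 6 lower) in that order. Lower limits let in genes of few reads throughout the table. A share of all genes is given for rdr6-11 against Col-0 with the limit of 20 alone (13.7%). The other counts under lower limits are not read as a trait of the family. The double against the triple mutant kept 15 to 19 calls. Even counts made up 81.9% (rdr6-11) and 81.5% (triple mutant) of the genes with 1 to 20 reads, and 38.4% to 41.5% elsewhere, so that intervals there may be too narrow; halving the counts of both gave 4 calls in rdr6-11 against Col-0.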

Other observations

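The reference gene table names 26 further WRKY genes that are not among the 45. Of these, 3 had at least 100 reads in a library and 14 had at least 20. TTR1 (AT5G45050) had 212 reads in Col-0, 300 in ein5-1, 251 in ski2-3, 483 in the double mutant, 295 in rdr6-11 and 375 in the triple mutant. WRKY19 (AT4G12020) had 126, 178, 162, 309, 144 and 208 in the same order. TTG2 (AT2G37260), known from trichome and seed coat development, had 60, 51, 76, 263, 81 and 70. WRKY71 (AT1G29860) had 66 reads in the double mutant and at most 7 in each of the other libraries.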
